A study of Mus musculus with 6 samples.

Results

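Complex I of the respiratory chain is built from nuclear genes whose symbols nearly all start with Nduf, and 45 of the 24421 rows of the deposited table carry such a symbol. The members were taken by symbol alone: 11 rows starting with Ndufs or Ndufv, 27 starting with Ndufa (without Ndufaf), Ndufb or Ndufc, and 7 starting with Ndufaf. Of these, 43 reached at least 1 FPKM (reads corrected for gene length and for the depth of the library) in at least 3 libraries and were tested. The symbols do not map fully onto roles. Of the 11 Ndufs/Ndufv rows, 7 encode catalytic core subunits, and the other 4 (Ndufs4, Ndufs5, Ndufs6, Ndufv3) encode accessory subunits. Ndufa4 and Ndufa4l2 carry the name but are now counted with complex IV, the cytochrome c oxidase.

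Complex I, the NADH:ubiquinone oxidoreductase, takes electrons from NADH, passes them along a chain of iron-sulphur clusters to ubiquinone and pumps protons across the inner mitochondrial membrane. Its N module oxidises NADH, its Q module reduces ubiquinone, and its membrane arm, whose pumping core is encoded by mitochondrial DNA, moves the protons. Accessory subunits wrap and stabilise this core, and the Ndufaf proteins help to assemble it without staying in the finished enzyme. Proximal tubule cells reabsorb most of the kidney filtrate and rely on mitochondrial ATP, and complex I is also a known source of superoxide.

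Messenger RNA came from primary mouse kidney proximal tubular epithelial cells cultured in DMEM/F-12 with serum, and all 6 libraries are of cells kept with 20 µM erastin2 over 24 h. This erastin analogue blocks cystine uptake and can bring on ferroptosis, an iron-dependent death through lipid peroxidation. There were 3 libraries of genotype Atg5F/F (a floxed allele of the autophagy gene Atg5) and 3 of genotype Atg5KO. The labels give 1 batch date for all of them, and the means of deleting Atg5, the age of the mice and the animal or culture behind each replicate are not stated in the labels. P-values therefore measure the spread between these libraries, which may be technical, and with no untreated cells, a difference already present before erastin2 and one that came with it cannot be told apart.

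The FPKM values imply 15528454 to 30004933 reads per library. Atg5 itself was higher in the libraries labelled Atg5KO (13.3, 11.5 and 12.7 FPKM in replicates 1 to 3, against 8.76, 8.95 and 7.94), which does not check the labels, because a whole-gene value cannot show a missing exon. The groups are therefore called KO-labelled and F/F-labelled below, and every direction rests on those labels. Of 13 proximal tubule markers, 6 (Slc34a1, Slc5a1, Slc5a2, Slc22a6, Cubn and Anpep) stayed under 1 FPKM in all libraries, and of the 7 tested, 4 were lower and 2 higher in KO-labelled libraries. The summed FPKM of the 13 ran from 444 to 467 in F/F-labelled libraries, against 365 to 395 in KO-labelled ones. Markers of distal tubule, collecting duct, podocytes, fibroblasts and pericytes were all under 1 FPKM. Of the 3 endothelial markers only Kdr was above that (summed 8.42 to 9.69 against 4.94 to 6.55 FPKM), and of the 3 leucocyte markers only Cd68 (4.56 to 5.54 against 3.85 to 4.44 FPKM). The part of cell composition in the results was not tested. In bulk RNA, fewer cells of a type and less RNA per cell cannot be told apart.

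A minority of complex I subunit transcripts were modestly lower in KO-labelled libraries, 11 of 35 tested, and no Ndufaf transcript passed the test. The difference between subunits and assembly factors was not itself tested. Of the 43 tested members, 11 were lower and 0 higher (limma on log2(FPKM + 1), Benjamini-Hochberg adjusted p under 0.05 over 11559 genes), against 17.9% of all tested genes called lower and 21.3% called higher. The 11 were 3 of 10 Ndufs/Ndufv genes, 8 of 26 Ndufa/Ndufb/Ndufc genes and 0 of 7 Ndufaf genes. Among only 7 genes, a count of 0 is not far from a share of 17.9%, so that count is no result about the Ndufaf genes. At an unadjusted p under 0.05 the counts of lower genes were 6, 14 and 0, where 22.2% of all tested genes are lower by that rule, with 0 higher in each group. The series title names oxidative phosphorylation as lowered by the knockout. The study that gave these samples had thus already named the pathway, and the direction is not independent evidence.

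The size of the difference was small throughout. The median log2 fold change, KO-labelled minus F/F-labelled, was -0.12 for Ndufs/Ndufv, -0.18 for Ndufa/Ndufb/Ndufc and -0.04 for Ndufaf genes, beside 0.02 for all tested genes. The fold change was below 0 for all 10 tested Ndufs/Ndufv genes, for 25 of 26 Ndufa/Ndufb/Ndufc genes and for 4 of 7 Ndufaf genes. All 3 KO-labelled values lay below all 3 F/F-labelled values in 9, 13 and 0 genes of the 3 groups, a pattern seen in 23.2% of all tested genes. The reverse pattern, seen in 28.7% of all tested genes, held for 0 members.

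**Figure D1:**
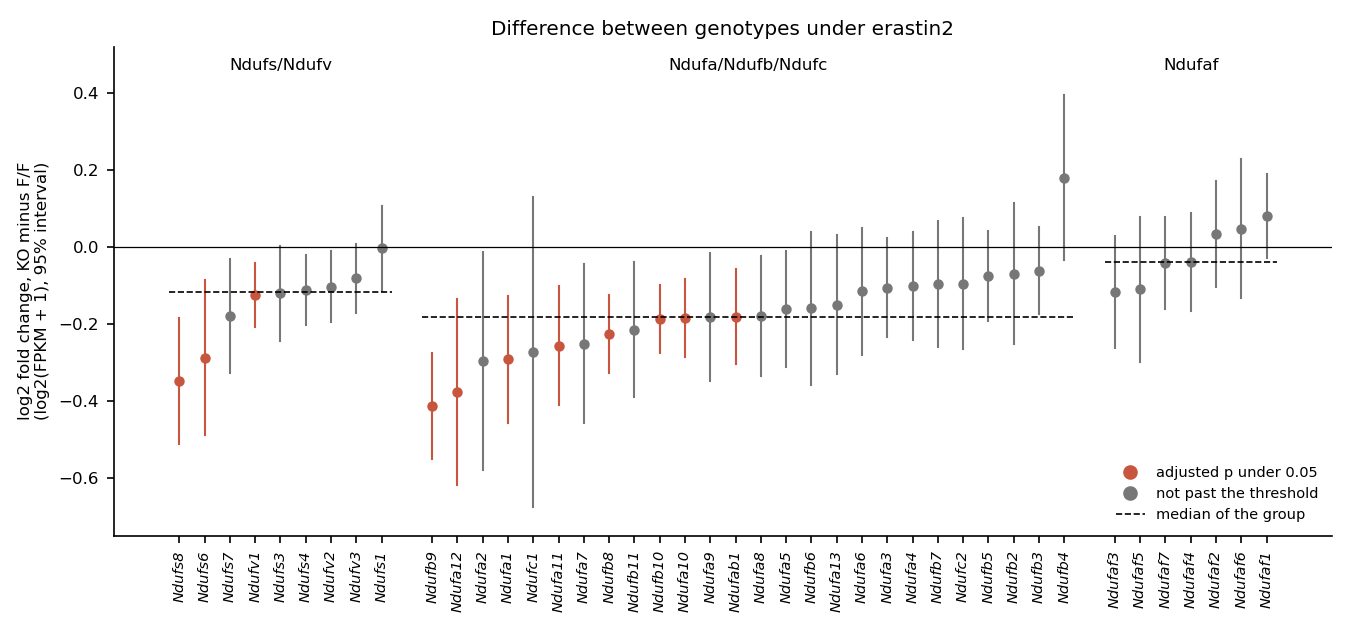
Log2 fold change (KO-labelled minus F/F-labelled, on log2(FPKM + 1)) of 42 of the 43 tested Nduf genes in 3 panels of symbols, with 95% intervals from limma as vertical lines. Red points are the 11 genes with an adjusted p under 0.05, grey points the others, and dashed lines the group medians of -0.12, -0.18 and -0.04.

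Summed over the 35 tested complex I subunits (without Ndufa4), the level was 3366, 3382 and 3434 FPKM in F/F-labelled replicates 1 to 3, against 3073, 3160 and 2723 FPKM in KO-labelled replicates 1 to 3. The groups did not overlap, and KO-labelled replicate 3 stood lowest. Mean sums of 3394 ± 36 and 2985 ± 232 FPKM (SD, n = 3) gave a difference of -12.0%, while the sum over all tested genes differed by -3.26%. The spread between KO-labelled libraries was thus several times that between F/F-labelled ones. The 7 Ndufaf transcripts summed to 83.6 ± 3.1 and 83.1 ± 2.0 FPKM (SD, n = 3), a difference within the spread of either group.

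Among the core subunits, Ndufs8 had the largest decrease. It encodes a ferredoxin-like protein of the Q module that carries a pair of iron-sulphur clusters on the way to ubiquinone (chromosome 19, 3908863 to 3912774 in GRCm38). Its level was 60.6, 61.6 and 57.9 FPKM in F/F-labelled replicates 1 to 3, against 46.9, 52.4 and 42.0 FPKM in KO-labelled replicates 1 to 3. Each KO-labelled value lay below each F/F-labelled one, from 750 to 950 reads against 982 to 1867. The log2 fold change was -0.35 (SE 0.072, limma adjusted p = 0.0053).

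Ndufv1, which binds NADH and the flavin that accepts its electrons, was the other core gene past the threshold, at 68.2, 66.2 and 69.7 FPKM against 62.7, 63.3 and 61.0 FPKM. These groups were tight and did not overlap, and the log2 fold change was -0.12 (SE 0.037, adjusted p = 0.026). The call of Ndufv1 was lost without F/F-labelled replicate 1 (adjusted p = 0.063), F/F-labelled replicate 3 (0.11), KO-labelled replicate 1 (0.061) or KO-labelled replicate 3 (0.064), and with quantile normalization (0.079). No other core gene was called. Ndufs7, whose iron-sulphur cluster hands electrons to ubiquinone, stood at 45.1, 47.7 and 49.0 FPKM against 44.5, 43.3 and 37.4 FPKM (-0.18, adjusted p = 0.058). Ndufs3 (73.9, 73.6 and 80.4 against 72.7, 71.9 and 65.0 FPKM, -0.12) and Ndufv2 (means 49.6 ± 1.6 against 46.2 ± 1.5 FPKM, SD, n = 3, -0.10) had groups that did not overlap and adjusted p-values of 0.11 and 0.075. The accessory subunit Ndufa5 of the same module as Ndufs3 stood at -0.16 (adjusted p = 0.083).

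Ndufs1, the large core subunit that carries several clusters of the N module, was the member nearest to no difference. It measured 34.9, 31.9 and 34.0 FPKM against 33.5, 32.0 and 35.0 FPKM, and the groups overlapped fully. Its log2 fold change was -0.0037 with a 95% interval of -0.11 to 0.11. Core subunits of the same enzyme thus ran from that value to the -0.35 of Ndufs8.

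Of the accessory subunits that share the Ndufs/Ndufv symbols, Ndufs6, a zinc-binding protein at the foot of the N module, was lower. It was also the most abundant of the 10, at 133, 124 and 141 FPKM against 115, 119 and 93.2 FPKM (log2 fold change -0.29, SE 0.089, adjusted p = 0.031). The groups did not overlap, but the call ended without F/F-labelled replicate 1 (adjusted p = 0.075) or F/F-labelled replicate 3 (0.10), with quantile normalization (0.0502) and with no filter on low values (0.086). Without KO-labelled replicate 3 the log2 fold change of Ndufs6 was -0.18. Ndufs4, loss of which gives mice a Leigh-like brain disease, measured 75.9, 75.9 and 78.6 against 74.0, 70.3 and 68.6 FPKM (-0.11, adjusted p = 0.053). Ndufv3 measured 34.0, 33.6 and 33.4 against 31.2, 33.2 and 30.9 FPKM (-0.08, adjusted p = 0.14). Ndufs5, a subunit that cells with complex I generally express, is listed at 0 in all 6 libraries and was not tested. An exact 0 in every library for such a gene is not read as absence.

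**Figure D2:**
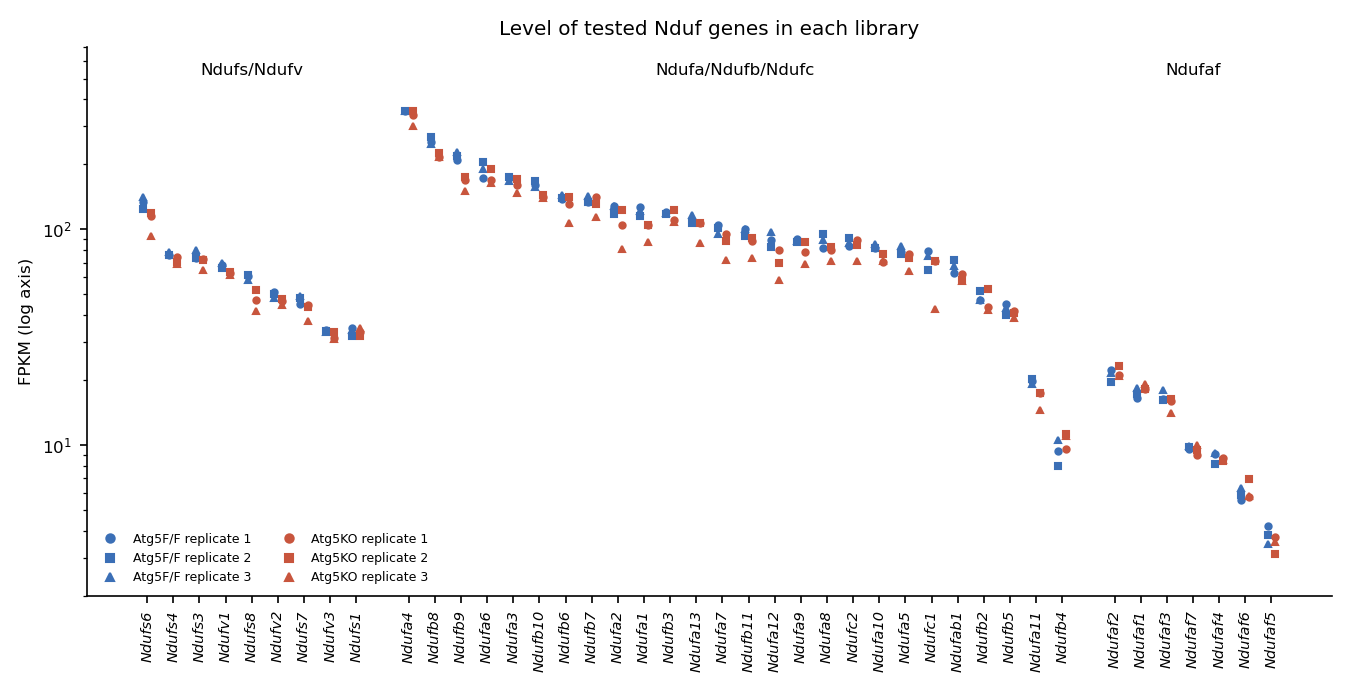
FPKM (log axis) of 42 of the 43 tested Nduf genes in each of the 6 libraries, blue for F/F-labelled and red for KO-labelled, the marker shape giving the replicate. Most subunits lie between 30 and 300 FPKM, the 7 Ndufaf genes lie under 25 FPKM, and the red triangles (KO-labelled replicate 3) are often the lowest points.

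The largest decrease of any member was that of Ndufb9, an accessory subunit of the distal membrane arm that holds a copy of the mitochondrial acyl carrier protein (chromosome 15, 58933756 to 58939488 in GRCm38). It measured 209.8, 219 and 227 FPKM against 169, 174 and 149.7 FPKM. The gap between the groups exceeded the range within the F/F-labelled one, with averages of 219 ± 8.6 and 164 ± 13 FPKM (SD, n = 3). The log2 fold change was -0.41 (SE 0.061, adjusted p = 9.8e-04). Its partner Ndufab1, that acyl carrier protein, which also serves mitochondrial fatty acid synthesis, was lower by less: 62.6, 71.8 and 67.4 against 61.8, 57.8 and 57.8 FPKM, with groups that only just did not overlap (-0.18, SE 0.054, adjusted p = 0.028). The call of Ndufab1 was lost without F/F-labelled replicate 2 (adjusted p = 0.080), F/F-labelled replicate 3 (0.079), KO-labelled replicate 2 (0.073) or KO-labelled replicate 3 (0.070), and with no filter on low values (0.061).

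Of the other distal arm genes, Ndufb8 and Ndufb10 were lower. Ndufb8, whose protein is widely used to mark assembled complex I, measured 255, 268 and 249 FPKM against 216, 226 and 217 FPKM (-0.23, SE 0.044, adjusted p = 0.0043). Ndufb10 measured 159.9, 167 and 157 against 141, 144 and 139 FPKM (-0.19, SE 0.039, adjusted p = 0.0058). In both, the 3 KO-labelled libraries lay close together and below the F/F-labelled ones, so KO-labelled replicate 3 did not stand apart. The X-linked Ndufb11 (100.2, 92.8 and 100.5 against 88.3, 91.5 and 73.6 FPKM) stood at -0.21 with an adjusted p of 0.054. The rest ran from -0.16 for Ndufb6 through Ndufb7 (-0.10), Ndufb5 (-0.07) and Ndufb2 (-0.07) to -0.06 for Ndufb3, with overlapping groups and no call.

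Ndufb4 was the single subunit with a value above 0. It measured 9.32, 7.94 and 10.6 FPKM against 9.60, 11.19 and 11.01 FPKM, from 56 to 127 reads, and the log2 fold change was 0.18 with a 95% interval of -0.03 to 0.40 (adjusted p = 0.16). The groups overlapped. It was also the least abundant tested subunit, at 9.27 FPKM where the other members of the distal arm had F/F-labelled means of 42.7 to 257 FPKM. The reference annotation holds processed pseudogenes named after Ndufb4, Ndufs6, Ndufab1 and Ndufa11, so the values of these genes are uncertain where reads are shared.

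In the N module, Ndufa12 had the second-largest decrease of all members. This subunit takes the place of its relative, the assembly factor Ndufaf2, when the N module docks. It measured 89.5, 82.99 and 96.8 FPKM against 80.5, 69.7 and 57.9 FPKM. The groups did not overlap, yet the KO-labelled values were widely spread (-0.38, SE 0.11, adjusted p = 0.022). The call was lost without F/F-labelled replicate 1 (adjusted p = 0.056) or F/F-labelled replicate 3 (0.077), and with no filter on low values (0.069). Ndufaf2 itself measured 22.3, 19.5 and 21.6 against 21.0, 23.1 and 20.9 FPKM, at 0.03 (95% interval -0.10 to 0.17, adjusted p = 0.68).

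Ndufa2 and Ndufa7, further N module subunits, were not called. Ndufa2, a thioredoxin-fold protein, measured 128, 117 and 128 against 105, 123 and 81.0 FPKM (-0.30, adjusted p = 0.091). KO-labelled replicate 2 lay within the F/F-labelled range, and without KO-labelled replicate 3 the log2 fold change was -0.14. Ndufa7 measured 105, 102 and 95.4 against 95.02, 88.0 and 71.9 FPKM (-0.25, adjusted p = 0.056), and the 2 groups only just stayed apart. Ndufa6 (174, 205 and 189 against 169.6, 190.0 and 164 FPKM, -0.12, adjusted p = 0.24) overlapped between groups.

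In the proximal membrane arm, 3 of 9 tested genes were lower. Ndufa1, a small X-linked subunit, measured 127, 115 and 122 FPKM against 105, 105 and 87.6 FPKM (-0.29, SE 0.073, adjusted p = 0.013). Ndufa11, which lies at the contact with complex III in the supercomplex, measured 19.8, 20.2 and 19.2 against 17.4, 17.3 and 14.5 FPKM (-0.26, SE 0.068, adjusted p = 0.018). Ndufa10, a subunit with a nucleoside kinase fold, measured 81.4, 81.8 and 85.6 against 70.4, 77.0 and 71.3 FPKM (-0.18, SE 0.045, adjusted p = 0.012). None of the 3 had overlapping groups. Ndufa11 lost its call without F/F-labelled replicate 2 (adjusted p = 0.053) and Ndufa10 without F/F-labelled replicate 3 (0.055).

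Several other subunits of this arm owed much of their value to KO-labelled replicate 3. Ndufc1, a small single-pass membrane protein, measured 79.5, 64.6 and 74.8 against 71.4, 70.9 and 42.6 FPKM (-0.27, 95% interval -0.68 to 0.13, adjusted p = 0.25), and at -0.03 without that library. Ndufa9 (-0.18, adjusted p = 0.077), Ndufa8 (-0.18, 0.067), Ndufa13 (-0.15, 0.17), Ndufa3 (-0.11, 0.17) and Ndufc2 (-0.09, 0.34) were not called either. KO-labelled replicate 3 held the lowest of the 6 values in each of these genes.

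Ndufa4, the most abundant transcript with an Nduf symbol although its protein belongs to complex IV, measured 353, 354 and 354 FPKM against 337, 354 and 299.6 FPKM. The F/F-labelled libraries were nearly identical and KO-labelled replicate 2 equalled them (-0.10, 95% interval -0.24 to 0.04, adjusted p = 0.22). Its hypoxia-inducible relative Ndufa4l2 had 0 to 2 reads per library and was not tested.

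**Figure D3:**
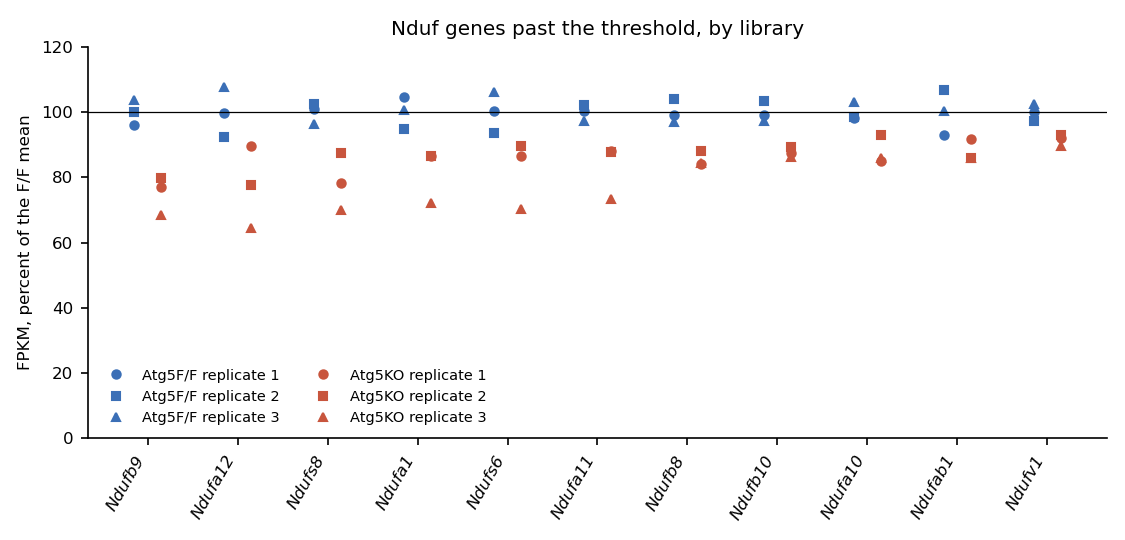
FPKM of the 11 Nduf genes with an adjusted p under 0.05, as a percentage of the F/F-labelled mean, with 1 point per library (blue F/F-labelled, red KO-labelled, marker shape by replicate) and the axis starting at 0. All red points lie under all blue points of the same gene, and the red triangle (KO-labelled replicate 3) stands apart in Ndufa1, Ndufs6 and Ndufa11 but not in Ndufb8, Ndufb10 or Ndufv1.

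By module of the enzyme, each module held at least 1 called gene. The N module had 3 of 10 tested genes lower (median -0.12), the Q module 1 of 5 (-0.16), the proximal membrane arm 3 of 9 (-0.18) and the distal membrane arm 3 of 10 (-0.13), with 0 higher in each, against 17.9% of all tested genes called lower. The count of the Q module is about that share. The largest decreases in the 4 modules were -0.38, -0.35, -0.29 and -0.41, and in the N module and both membrane arms they stood beside members nearer to 0 than -0.10. No test of a difference between modules was made.

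The assembly factors were less abundant, with F/F-labelled means of 3.82 to 21.2 FPKM where the tested Ndufs/Ndufv genes had 33.6 to 133 FPKM. Ndufaf1, which acts with Ecsit and Acad9 in an early assembly complex of the membrane arm, measured 16.5, 17.3 and 18.3 against 18.1, 18.1 and 19.0 FPKM (0.08, adjusted p = 0.21). Ndufaf3 and Ndufaf4, which bind each other and guide the Q module, stood at -0.12 (16.3, 16.2 and 18.0 against 15.9, 16.3 and 14.1 FPKM, adjusted p = 0.18) and -0.04 (9.11, 8.16 and 9.15 against 8.72, 8.40 and 8.48 FPKM, adjusted p = 0.61). Groups overlapped in all of them.

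The enzymes among the factors were no different in this respect. Ndufaf5, which modifies Ndufs7, was the lowest transcript, at 4.18, 3.82 and 3.46 against 3.73, 3.11 and 3.55 FPKM (-0.11, adjusted p = 0.32). Ndufaf7, a mitochondrial methyltransferase, measured 9.61, 9.79 and 9.88 against 8.96, 9.42 and 10.0 FPKM (-0.04, adjusted p = 0.56). Ndufaf6 measured 5.54, 5.83 and 6.33 against 5.72, 6.94 and 5.79 FPKM (0.05, adjusted p = 0.67). The 95% intervals of the 7 factors reached from -0.30 at the lowest (Ndufaf5) to 0.23 at the highest (Ndufaf6). Those of Ndufaf3 and Ndufaf5 held the Ndufa/Ndufb/Ndufc median of -0.18, and those of the other 5 did not. That median is not a fixed value. It was -0.09 without KO-labelled replicate 3 and -0.06 with length and GC trends removed. The comparison is therefore no test of factors against subunits.

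Of 12 tested complex I assembly genes of other names, 2 were lower and 0 higher, with a median of -0.03. Their share of lower genes was near the 17.9% of all tested genes, so the count is no result about the list, and its 2 called genes are given as single values. Tmem126a measured 103, 101 and 105 against 94.6, 92.6 and 82.6 FPKM (-0.20, SE 0.053, adjusted p = 0.018). Ecsit measured 18.5, 18.5 and 17.2 against 16.3, 16.6 and 15.0 FPKM (-0.17, SE 0.052, adjusted p = 0.032). Both had groups that did not overlap. The partners of Ecsit in its assembly complex were not called, with Acad9 at 0.04 and Tmem126b at 0.09.

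Start regions of the members were searched for the letters of regulators known for respiratory chain genes. The RefSeq table of start regions (GRCm38.p6, 250 bases before to 50 after the start) held 41 entries for 39 of the 45 members. Ndufa2, Ndufa4l2, Ndufaf6, Ndufb9 and Ndufs1 were among those with no entry. The letters AAGATGGC, searched on both strands for YY1, were found in 7 of the 41 entries (17.1%), against 2.75% of all 32851 entries of the table. All 7 lay on the gene strand, 23 to 39 bases after the start. Anywhere in the 50 bases after the start, 0.86% of all entries hold the letters on that strand. In all 7 matches the ATG within the letters was the annotated start codon. The same letters around a start codon are known as part of an element that directs translation of messages with very short leaders. Windows of 30 bases along the gene strand follow, with the letters in capitals, because they show the shared sequence that the symbols did not choose.
Ndufs6 (chr13:73328433-73328462, minus strand): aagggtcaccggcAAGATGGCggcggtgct
Ndufb8 (chr19:44555393-44555422, minus strand): tgaaccgcggagaaggtgAAGATGGCtgcc
Ndufs7 (chr10:80249462-80249491, plus strand): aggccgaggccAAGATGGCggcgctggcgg
Ndufs4 (chr13:114388045-114388074, minus strand): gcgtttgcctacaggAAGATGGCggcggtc
Ndufa9 (chr6:126849097-126849126, minus strand): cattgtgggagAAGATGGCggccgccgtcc
Ndufa3 (chr7:3617384-3617413, plus strand): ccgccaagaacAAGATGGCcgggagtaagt
Ndufc1 (chr3:51408915-51408944, minus strand): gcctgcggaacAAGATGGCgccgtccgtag

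Of these 7 genes, 2 (Ndufs6 and Ndufb8) were called lower, and their fold changes ran from -0.29 to -0.11 with a median of -0.18, close to that of the accessory subunits as a whole. The NRF-1 palindrome, in capitals in the windows and searched on both strands, stood in 3 of 41 entries (7.32%, against 0.97% of all entries): in Ndufa11, which was lower, and in Ndufaf4 and Ndufaf5, which were not called. These windows are shown because they set a called subunit beside uncalled assembly factors.
Ndufa11 (chr17:56717692-56717721, plus strand): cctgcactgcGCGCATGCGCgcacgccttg
Ndufaf4 (chr4:24897960-24897989, plus strand): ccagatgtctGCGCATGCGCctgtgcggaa
Ndufaf5 (chr2:140170652-140170681, plus strand): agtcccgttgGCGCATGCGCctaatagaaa
The ETS family letters CCGGAAGT stood in 1 entry (Ndufs3, 2.44% against 3.89% of all entries), and the letters TCAAGGTCA of the oestrogen-related receptors in 0 of 41 (0.42% of all entries). A match is a description of letters and not a bound site.

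One library carried much of the difference. KO-labelled replicate 3 held the lowest value of the 6 libraries in 33 of the 43 tested members, against 19.7% of all tested genes. The median deviation from each gene's mean was -0.04, 0.0034 and -0.22 in KO-labelled replicates 1 to 3 for Ndufa/Ndufb/Ndufc genes, and -0.03, -0.02 and -0.10 for Ndufs/Ndufv genes. Ndufaf genes showed no such step, at -0.01, 0.02 and -0.03. Without that library, 9 of the 11 genes were still called and no others were added, and the medians of the 3 groups were -0.08, -0.09 and -0.04. Ndufb9 and Ndufs8 then stood at -0.35 and -0.27.

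**Figure D4:**
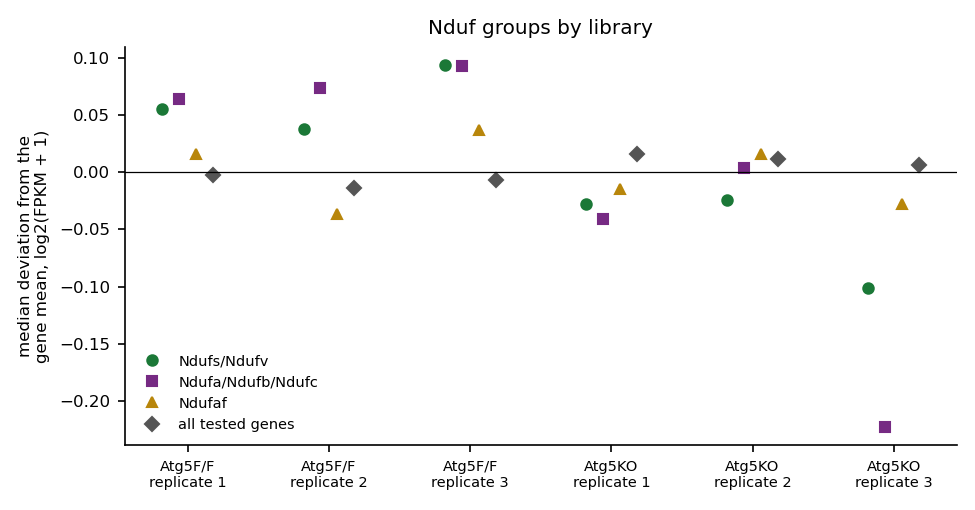
Median deviation of each group's tested genes from the gene means, on log2(FPKM + 1), in each of the 6 libraries. The Ndufa/Ndufb/Ndufc squares fall to -0.22 in KO-labelled replicate 3, while the Ndufaf triangles and all tested genes (grey) stay within 0.04 of 0 in every library.

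Transcript length moved with the result. The 35 tested subunits had a median length of 739 bases and 65.7% were shorter than 1000 bases, against 2854 bases and 9.01% for all tested genes. By group of symbols the median length was 1556.5 bases for Ndufs/Ndufv, 618.5 for Ndufa/Ndufb/Ndufc and 1451 for Ndufaf genes. The Ndufaf median length was thus nearer to that of the Ndufs/Ndufv genes than to that of the Ndufa/Ndufb/Ndufc genes. Over all tested genes, each library's deviations correlated with length (Spearman rho across genes, which are not independent) at -0.23 to -0.16 in the F/F-labelled libraries. The KO-labelled replicates 1 to 3 gave 0.12, 0.04 and 0.34. With this trend removed in each library, 7 of the 11 genes were still called and the medians were -0.07, -0.10 and -0.03. Ndufb8 (-0.13, adjusted p = 0.074), Ndufb10 (-0.09, 0.15), Ndufab1 (-0.10, 0.22) and Ndufv1 (-0.09, 0.060) were not, and Ndufb4 was called higher (0.29, 0.045). Among the 36 tested subunit-named genes themselves, the fold change showed little relation to length (Spearman rho 0.038, a description over genes that share the 6 libraries). The same rho was 0.21 over all 43 tested Nduf genes and 0.23 over all 11559 tested genes. Against the F/F-labelled mean level, the rho was -0.495 over the 43, -0.292 over the 36 and -0.189 over all tested genes. The part of length or of level in the group medians was not tested. The part of RNA quality in these values was not tested.

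Removing trends on both length and GC content left medians of -0.05, -0.06 and -0.0040, and of the 11 genes Ndufb9 (-0.27), Ndufa12 (-0.25), Ndufs8 (-0.24), Ndufa11 (-0.22), Ndufa1 (-0.20), Ndufs6 (-0.19) and Ndufb8 (-0.15) kept their call, while Ndufs4 (-0.12), Ndufv2 (-0.12), Ndufaf4 (-0.15) and, upwards, Ndufb4 (0.32) gained one. Ndufb9, Ndufs8 and Ndufa1 were lower in all 15 alternative settings that were run. Median-ratio scaling raised the number of called members to 19, all lower, and voom on reads worked back from the FPKM gave 17, all lower.

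**Figure D5:**
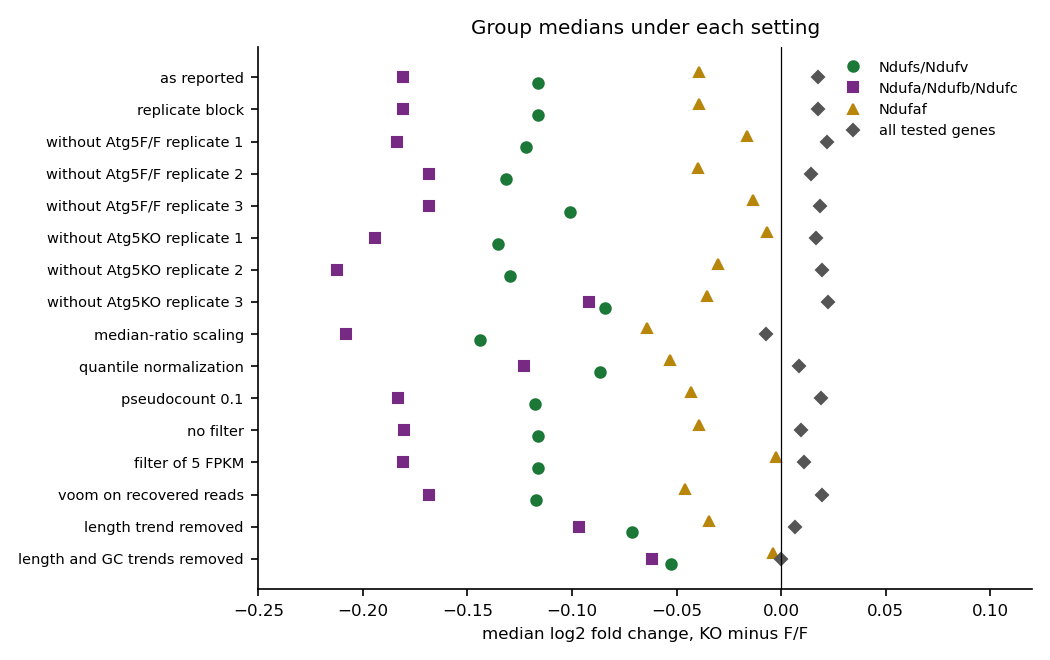
Median log2 fold change (KO-labelled minus F/F-labelled) of each group under the reported setting and 15 alternatives, with all tested genes in grey. The subunit groups stay under 0 in every setting, and the Ndufa/Ndufb/Ndufc median moves from -0.18 to -0.09 without KO-labelled replicate 3, to -0.10 with the length trend removed and to -0.06 with the GC trend removed too.

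The authors' deposited table calls more of the same rows. At an FDR under 0.05 it gives 25 of the 45 Nduf rows as lower and 0 as higher, where 11.4% of all rows of the authors' deposited table are lower and 10.6% higher. These are 6 of 11 Ndufs/Ndufv, 19 of 27 Ndufa/Ndufb/Ndufc and 0 of 7 Ndufaf rows in the authors' deposited table. Its fold change is -0.44 for Ndufb9 and -0.38 for Ndufs8. The shares of 11.4% and 10.6% are over all 24421 rows, of which 18296 were above 0 in any library. Rows without reads could not be called and lower these shares.

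Other sets of mitochondrial genes are given beside the 17.9% of all tested genes called lower and the 21.3% called higher. The nuclear subunits of complexes II to V had 23 of 42 tested genes lower and 1 higher, with a median of -0.20, and among mitochondrial ribosomal proteins 28 of 77 were lower and 0 higher (median -0.13). No test of complex I against either set was made.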

How the data were processed

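Stranded mRNA libraries of 6 samples were used. The authors deposited 1 table of FPKM per gene symbol and library, with a log2 fold change, a p-value, an FDR and a ranking score. Per the submitters' processing notes the tools were HISAT2 2.1.0 and featureCounts 1.4.6, after bcl2fastq and Trimmomatic 0.35, then edgeR, on GRCm38/mm10. The annotation, strand setting and use of multi-mapping reads are not stated there.

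The main test was limma 3.58.1 in R 4.3.3 (moderated variances, trended on expression) on log2(FPKM + 1). It took the 11559 genes that reached 1 FPKM in 3 or more libraries, with Benjamini-Hochberg adjustment over all of them and a threshold of 0.05. It was also run on simulated counts with larger changes than any member showed. That run does not show how well differences of the present size are found. Whole reads were worked back from the FPKM steps for 99.99% of the 18296 genes above 0, within 2.0e-04 reads plus a relative 1.5e-09, and gave library totals and gene lengths. Coordinates are from GENCODE vM21. Tables were read with Python 3.11.15 and pandas 2.3.3.

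The members and gene lists were chosen with earlier results of these data known. Named with values by rule were all called members, in each group the 2 most abundant, the 2 least abundant and the 2 uncalled members with the largest difference, and Ndufa4, Ndufa4l2, Ndufab1 and every Ndufaf gene. One member counts in every total but is not reported individually here. Other members were named after their values were seen. Modules were assigned from general knowledge. Alternatives changed the design (a replicate block, each library left out), the scaling (quantile normalization or median ratios), the filter (5 FPKM or none), the pseudocount (0.1), the model (voom on recovered reads), and removed loess trends (span 0.5) on length, alone or with GC content (matched for 96.3% of tested genes).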

Additional observations from a re-analysis of the deposited data

How the results depend on the processing

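Tested subunits other than Ndufb4 had at least 307 reads in every library, Ndufb4 had 56 to 127, and the Ndufaf genes went down to 98 (Ndufaf6). How far depth or the number of libraries, 3 per group, limits the precision was not tested. Over 15 alternatives, 547 of 629 values of single members kept their direction and side of the threshold, 28 lost the call, 36 gained it and 18 changed sign, none of the last with a call. Most of the 42 members in this count were uncalled as reported, and only the 11 called genes could lose a call. Those genes were called lower in 8 (Ndufab1 and Ndufv1) to 15 (Ndufb9, Ndufs8 and Ndufa1) of the 15 alternatives. Whether replicate numbers pair the libraries is not stated in the labels. Deviations of same-numbered libraries correlated at 0.16, 0.08 and -0.02, and those of differently numbered ones at -0.13 to 0.05, which does not settle it. With the replicate block, 12 members were called, 2 Ndufs/Ndufv and 10 Ndufa/Ndufb/Ndufc genes, and Ndufs6 was not (adjusted p = 0.054). With no filter on low values 3 of the 11 calls were lost (Ndufs6, Ndufa12 and Ndufab1).

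The count of lower Ndufs/Ndufv genes, 3 as reported, was 6 under median-ratio scaling and 1 under quantile normalization, and 1 to 4 when a library was left out. The count of lower Ndufa/Ndufb/Ndufc genes, 8 as reported, was 13 under median-ratio scaling, 13 with voom, and 5 with the length trend or the length and GC trends removed, and 5 to 14 when a library was left out (5 without F/F-labelled replicate 3, 14 without KO-labelled replicate 2). Higher genes of that group numbered 1 with the length trend removed and 1 with both trends removed, Ndufb4 in each. With both trends removed 1 Ndufaf gene was lower (Ndufaf4, -0.15, adjusted p = 0.034). Group medians moved by more than the spread between libraries for Ndufs/Ndufv with the length trend (-0.0714) or both trends removed (-0.0528), for Ndufa/Ndufb/Ndufc with both trends removed (-0.0619) or without KO-labelled replicate 3 (-0.0918), and for Ndufaf without KO-labelled replicate 1 (-0.0067), with a filter of 5 FPKM (-0.0025) or both trends removed (-0.0040). Leaving out a library gave medians of -0.14 to -0.084, -0.21 to -0.0918 and -0.0395 to -0.0067 for the 3 groups. The cause was not tested.

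Signs changed as follows. With the length trend removed, Ndufa3 stood at 0.0163, Ndufa4 at 0.0050, Ndufb7 at 0.0081, Ndufb2 at 0.0411 and Ndufb3 at 0.0418. With both trends removed, Ndufa6 stood at 0.0288, Ndufa3 at 0.0498, Ndufb7 at 0.0507, Ndufb2 at 0.0010 and Ndufb3 at 0.0093. Quantile normalization gave Ndufa4 0.0062 and Ndufb3 0.0219. Leaving out a library gave Ndufaf2 values from -0.0204 to 0.0732, Ndufaf6 values from -0.0302 to 0.0917 and Ndufs1 values from -0.0398 to 0.0283. The median of all tested genes was -0.0070 under median-ratio scaling and -2.0e-04 with both trends removed.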
